A study of Mus musculus with 18 samples.

Results

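The genes examined were those of 3 inhibitory peptide systems, measured in the spinal dorsal horn (DHSC): the ligands *Sst* (somatostatin), *Npy* (neuropeptide Y) and *Gal* (galanin), the somatostatin receptors *Sstr1*, *Sstr2* and *Sstr3*, the neuropeptide Y receptors *Npy1r* and *Npy2r*, and the galanin receptor *Galr1*. They were chosen by their gene symbols, not by their values, and they make up 9 of the 55573 genes of the count table. All 9 passed the filter on low counts in both comparisons described here, with 217 to 16752 reads per gene and sample. RNA-Seq had been performed on the ipsilateral DHSC of adult C57BL/6J mice, 2 h after 2% formalin had been injected into the left hind paw. The 18 samples were 6 females of the F1/proestrus group, whose pain behavior had a short interphase, 6 females of the F2/metestrus group, whose interphase was long, and 6 males. All 18 came from formalin-injected animals, so no value below measures the response to formalin, and the behavioral type and the stage of the estrus cycle cannot be told apart. The methods call the samples biological replicates, and p-values measure the spread between them.

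Somatostatin in the superficial dorsal horn is made mainly by excitatory interneurons, whereas neuropeptide Y is made mainly by inhibitory interneurons. Galanin is made by some dorsal horn interneurons and by a subset of sensory neurons of the dorsal root ganglia, whose central endings reach the dorsal horn. The 6 receptors among the 9 genes couple to inhibitory G proteins, which lower cyclic AMP and open GIRK potassium channels. *Npy1r* is best known from excitatory dorsal horn interneurons, and *Npy2r* from sensory neurons and their endings. Each peptide is cut out of a longer precursor, and the counts measure the mRNA of that precursor.

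The stretch of the *Sst* mRNA that ends up in the peptide is shown first, because it is what this transcript is read for. Somatostatin-14 is encoded by the last 14 of the 116 codons before the stop codon, on the minus strand at chr16:23889732-23889773 of GRCm38 (GENCODE vM21), written 5′ to 3′ along the mRNA.
Sst, somatostatin-14 codons: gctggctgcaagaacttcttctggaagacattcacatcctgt

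Promoter sequence was compared among the genes because *Npy* and *Gal* parted the female groups and *Npy2r* had the largest difference between the sexes. RefSeq promoter entries (GRCm38.p6) were found for 7 of the 9 genes, with 2 entries for *Sstr3*, and the 250 bases before the annotated start were searched on both strands. The cyclic AMP response element TGACGTCA, the motif through which *Sst* transcription is classically induced by cyclic AMP, was present before *Sst* and *Sstr2* and in 1.55% of 32851 promoters. It lay 48 bases before the RefSeq start of *Sst* and 58 bases before that of *Sstr2*. GENCODE vM21 places the start of *Sst* further upstream, at 23890958, so that by this annotation the element of *Sst* lies inside the gene. Around it, 30 bases of each are given with the element in capitals, from chr16:23890874-23890903 (minus strand) and chr11:113619258-113619287 (plus strand).
Sst: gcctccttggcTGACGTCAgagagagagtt
Sstr2: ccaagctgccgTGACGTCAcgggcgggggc

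The AP-1 motif TGANTCA was found before *Npy1r* and in 6.75% of all promoters. The estrogen response element core GGTCA was found before *Gal* and in 1 of the 2 entries of *Sstr3*, and in 35.2% of all promoters. The 100 bases before the start of *Gal* (chr19:3414545-3414644, minus strand), *Npy* (chr6:49822610-49822709, plus strand) and *Npy2r* (chr3:82548086-82548185, minus strand) are given, since these are the genes on which the comparisons below turn, with the core in capitals.
Gal: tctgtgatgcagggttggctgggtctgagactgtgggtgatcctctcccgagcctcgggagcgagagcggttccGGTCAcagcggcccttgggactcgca
Npy: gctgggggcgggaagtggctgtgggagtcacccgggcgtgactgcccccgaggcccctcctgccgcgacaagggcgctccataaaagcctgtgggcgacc
Npy2r: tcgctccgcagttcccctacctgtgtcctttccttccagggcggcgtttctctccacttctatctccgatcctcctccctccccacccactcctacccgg
The core of *Gal* began 26 bases before the start, and neither *Npy* nor *Npy2r* had one in its window of 250 bases. A match of these letters is a description and no evidence of binding.

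The labels were checked first. In all 18 samples the sex genes matched the labelled sex: *Ddx3y* was at 63.5 to 83.5 CPM (counts scaled to library size with TMM) in males and at most 0.0637 CPM in females, and *Xist* was at 8.75 to 17.7 CPM in females and at most 0.0996 CPM in males. The dorsal horn transcription factors *Lmx1b*, *Tlx3*, *Prrxl1* and *Lbx1* were detected in all samples, with at least 276 reads each. Each sample held 73590509 to 125724156 counted reads, so that 3 counts corresponded to 0.0240 to 0.0407 CPM, a floor that covers counting error only. The libraries carry numbers from 2 runs, 27 to 35 (the first series) and 188 to 196 (the second series), and each run holds 3 samples of every group. One sample stood apart by markers: F1/proestrus replicate 5 had 715 CPM over 8 genes of sensory ganglion neurons, while the other 17 samples had 65.2 to 136 CPM. Its *Scn10a* and *Mrgprd*, sodium channel and receptor genes of nociceptors, were at 125 and 32.9 CPM, against at most 0.153 and 0.0445 CPM elsewhere. *Tlx3* and *Prrxl1* of the excitatory neuron list and *Isl1* of the motor neuron list were also highest there. They were at 7.73, 55.8 and 12.0 CPM, against at most 6.14, 46.8 and 2.69 CPM elsewhere. The other genes of these lists were not highest in this sample. The log2 fold changes of *Gal*, and that of *Npy2r* between the sexes, are given with and without this sample. Group means, permutation tests and most other values include it.

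*Sst* had the highest level of the 9 genes and *Galr1* the lowest. Levels between genes were compared as RPKM, that is CPM per kilobase of annotated exon. Over the 18 samples *Sst* was at 142 ± 29.2 RPKM (SD, n = 18), *Npy* at 55.7 ± 12.2 and *Gal* at 20.8 ± 4.48 RPKM. The receptors followed with *Sstr2* at 10.4 ± 0.892, *Npy1r* at 4.58 ± 0.423, *Sstr1* at 3.73 ± 0.412, *Npy2r* at 2.28 ± 0.628, *Sstr3* at 1.56 ± 0.125 and *Galr1* at 1.33 ± 0.220 RPKM. The ranges of neighbouring genes did not overlap down to *Npy1r*: the lowest *Sst* sample had 105 RPKM and the highest *Npy* sample 91.8 RPKM, and the lowest *Sstr2* sample had 9.03 RPKM and the highest *Npy1r* sample 5.17 RPKM. From *Npy1r* downward the range of each gene overlapped with that of the next. Within samples the order was mostly kept: *Npy1r* was above *Sstr1* in 17 of 18 samples (all but male replicate 2), *Sstr1* above *Npy2r* in 17 (all but F1/proestrus replicate 5), *Npy2r* above *Sstr3* in 16 (all but male replicates 3 and 4) and *Sstr3* above *Galr1* in 15.

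**Figure D1:**
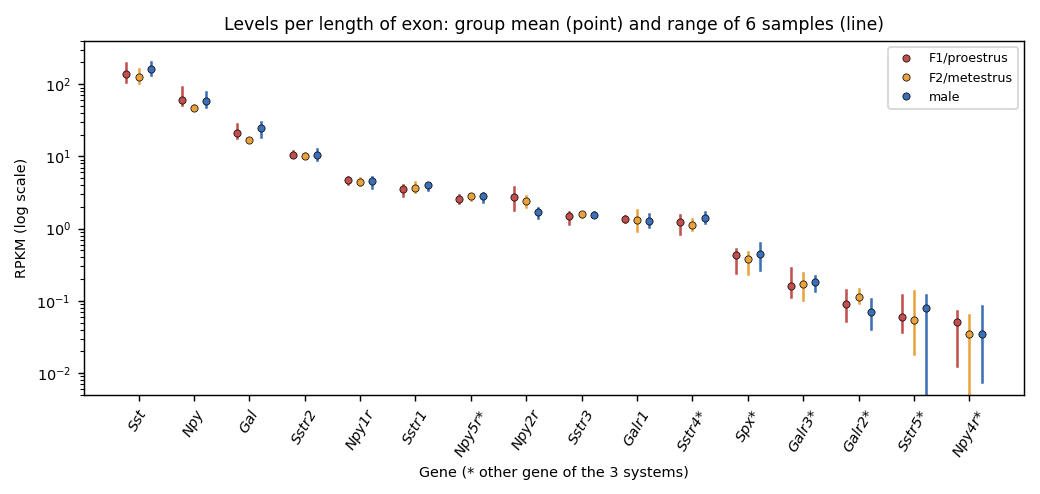
Levels per length of exon (RPKM, log scale) of the 9 genes and of 7 other genes of the 3 systems (asterisks) in F1/proestrus, F2/metestrus and male samples. Points are group means and lines the range of 6 samples; a line that reaches the lower edge includes a sample at 0. *Sst*, *Npy* and *Gal* lie above all receptors in every group.

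None of the 9 genes passed the test between F2/metestrus and F1/proestrus, and none passed it between males and females (edgeR's quasi-likelihood test, Benjamini-Hochberg adjustment over all genes, FDR of 5%). Over all genes tested, 0 of 24042 (0%) were called between the female groups, with 596 at an unadjusted p under 0.05 and 2 of 44127 (0.00453%) called by DESeq2. Between the sexes 49 of 24862 (0.197%) were called. The median log2 fold change of all genes was -0.00038 between the female groups and -0.0013 between the sexes. The 9 genes had a median log2 fold change of -0.06 for F2/metestrus against F1/proestrus, with 2 above 0, and of 0.04 for males against females, with 6 above 0.

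**Figure D2:**
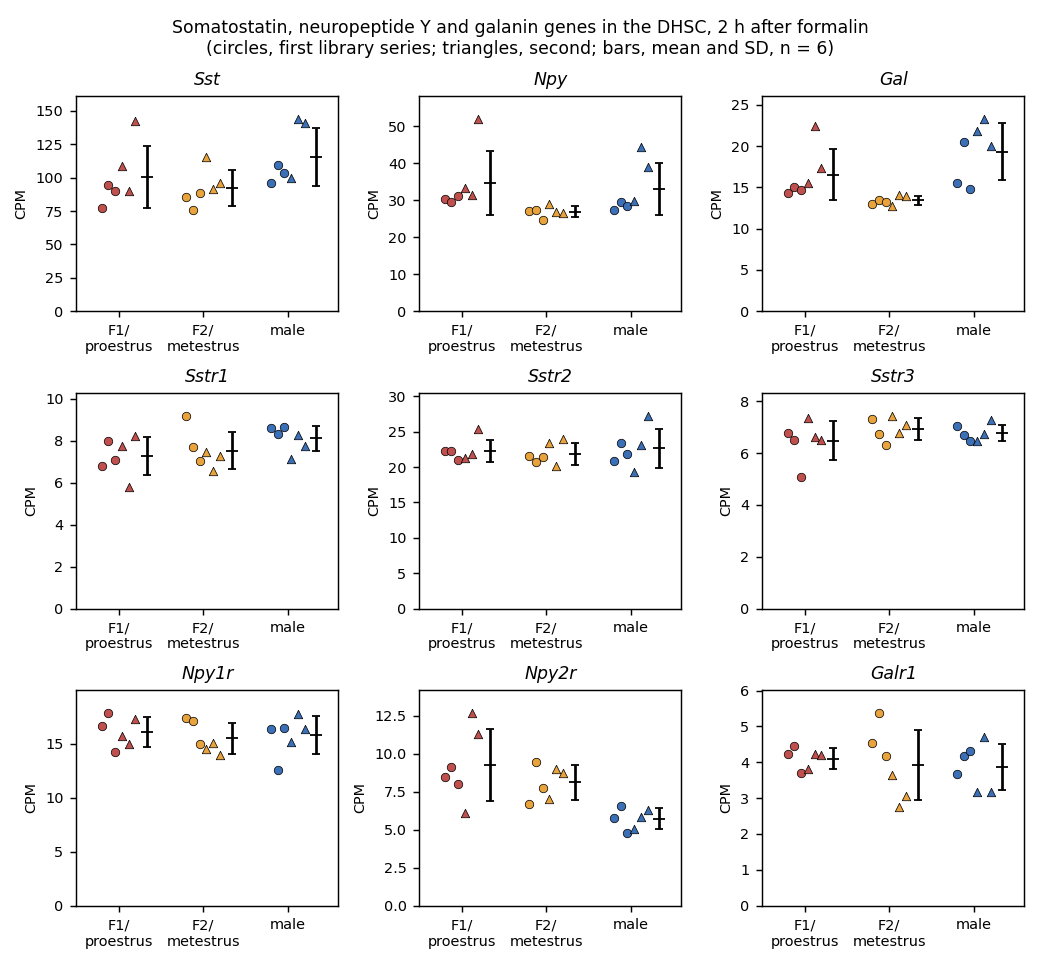
CPM of each of the 9 genes in each sample, by group, with circles for the first library series, triangles for the second, and bars for the mean and SD of 6 samples. All F1/proestrus samples of *Npy* and *Gal* lie above all F2/metestrus samples, and *Npy2r* is lowest in the males, whose highest sample has 6.59 CPM.

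The first question was whether the ligands differed between the F1/proestrus and F2/metestrus groups. *Npy* ranged from 29.5 to 52.0 CPM in F1/proestrus (median 31.3), from 24.7 to 29.1 CPM in F2/metestrus (median 26.9) and from 27.3 to 44.3 CPM in males (median 29.6). All 6 F1/proestrus samples thus lay above all 6 F2/metestrus samples, and the males overlapped with both. The means were 34.6 ± 8.60 and 26.9 ± 1.4 CPM (SD, n = 6 each). On the log2 scale F2/metestrus differed from F1/proestrus by -0.36 (standard error 0.119). The edgeR p was 0.00776 before adjustment and 1.0 after it. The difference was present within each library series, at -0.21 in the first and -0.50 in the second. F1/proestrus replicate 6 had by far the most *Npy*, and leaving it out gave a log2 difference of -0.21 (unadjusted p of 0.00181 and adjusted p of 1.0 with edgeR).

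*Gal* showed the same separation of the female groups. Its levels were 14.3 to 22.4 CPM in F1/proestrus (median 15.2), 12.8 to 14.04 CPM in F2/metestrus (median 13.4) and 14.8 to 23.3 CPM in males (median 20.2). No F1/proestrus or male sample was as low as the highest F2/metestrus sample. The log2 difference of the female groups was -0.30 (standard error 0.0990), for which edgeR gave a p of 0.00785 before and 1.0 after adjustment. It was -0.15 within the first series and -0.44 within the second, and it was -0.20 without F1/proestrus replicate 5, the sample rich in sensory ganglion markers (unadjusted p of 0.00989 and adjusted p of 1.0 with edgeR). For both *Npy* and *Gal* an exact permutation test of the mean CPM (two-sided) gave p = 0.00216, the smallest that 6 samples against 6 allow. This p is 1 of 36 computed for the 9 genes and was not adjusted. Among the 24042 genes tested, 13 (0.0541%) had all F1/proestrus samples above all F2/metestrus samples, and *Npy* and *Gal* were 2 of these 13. Another 13 (0.0541%) were parted the other way. Relabelling the samples parts the groups, in either direction, with a probability of 0.00216 (permutation test), and these shares do not exceed it. Being among the 13 is thus no evidence of a difference. By unadjusted edgeR p *Npy* and *Gal* ranked 91st and 93rd of the 24042 genes.

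*Sst* differed less between the female groups than within them. It ranged from 77.1 to 143 CPM in F1/proestrus (median 92.4), from 75.6 to 115 CPM in F2/metestrus (median 89.9) and from 96.1 to 144 CPM in males (median 106). The groups overlapped throughout. F2/metestrus lay at a log2 fold change of -0.13 relative to F1/proestrus (95% interval -0.41 to 0.15), or -0.0019 when F1/proestrus replicate 6 was left out.

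**Figure D3:**
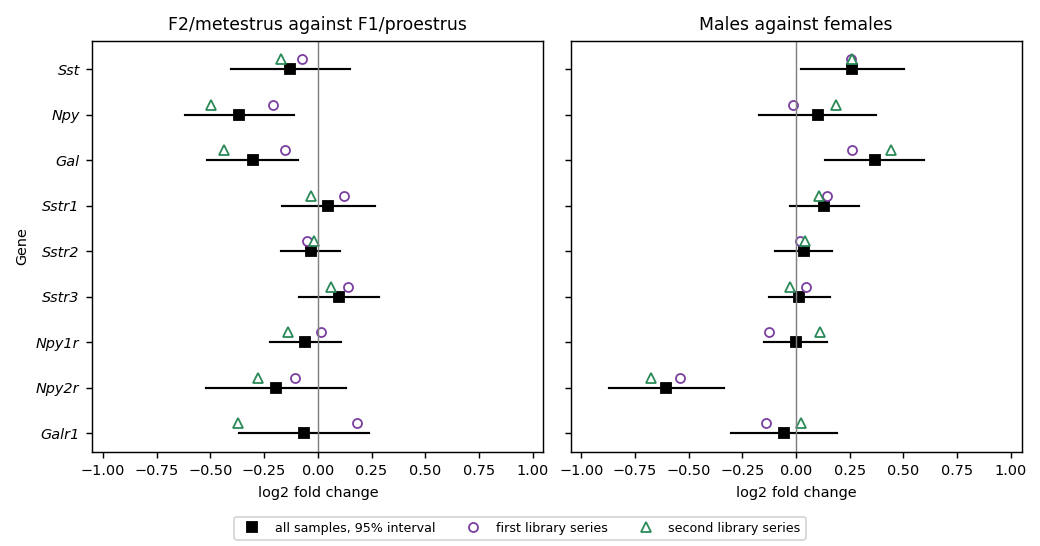
Log2 fold changes of the 9 genes between the female groups (left) and between the sexes (right). Squares and lines give the edgeR estimate with its 95% interval over all samples, circles and triangles the estimates within the first and second library series. *Npy* and *Gal* are below 0 in both series on the left, and *Npy2r* is below 0 in both series on the right.

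Between the sexes, the receptor *Npy2r* had the largest difference of the 9 genes. It ranged from 4.81 to 6.59 CPM in males (median 5.81), from 6.08 to 12.7 CPM in F1/proestrus (median 8.82) and from 6.70 to 9.48 CPM in F2/metestrus (median 8.25). The males lay below all 6 F2/metestrus samples, and below 5 of the 6 F1/proestrus samples, the exception being replicate 4 at 6.08 CPM. Males had a mean of 5.72 ± 0.690 CPM (SD, n = 6) and females one of 8.70 ± 1.88 CPM (SD, n = 12), so that the female mean was 1.52 times the male mean. The log2 fold change of males against females was -0.60 (standard error 0.129, 95% interval -0.87 to -0.34). The edgeR p was 0.000122 before adjustment and 0.0548 after it, just outside the FDR of 5%, and *Npy2r* ranked 55th of 24862 genes. The exact permutation test of the mean CPM (two-sided) gave p = 0.00183.

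The call of *Npy2r* changed with the tool. Voom did not call it, with an adjusted p of 0.108 (limma). DESeq2 called it with an adjusted p of 0.00117, among 159 of 25388 genes (0.626%), and edgeR with the library series as a covariate called it with an adjusted p of 0.0317, among 134 of 24862 genes (0.539%). It was lower in males within both library series, by -0.54 in the first and -0.67 in the second on the log2 scale, without a call in either (adjusted p of 0.332 and 0.312 with edgeR). F1/proestrus replicate 5 had the highest *Npy2r* of all samples. Leaving this sample out gave a log2 fold change of -0.54, and the adjusted p was 0.0326 (edgeR), and the females then had 6.08 to 11.3 CPM. Against F1/proestrus alone the log2 fold change was -0.70 and against F2/metestrus alone it was -0.50, with adjusted p of 0.0795 and 0.298 (edgeR). Of 24862 genes, 79 (0.318%) had all males below all F2/metestrus samples.

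*Gal* had a higher mean in males but did not pass the test. The male mean was 19.3 ± 3.43 CPM (SD, n = 6) and the female mean 14.97 ± 2.65 CPM (SD, n = 12). The log2 fold change was 0.37 (standard error 0.111), with an edgeR p of 0.00333 before and 0.275 after adjustment. All 6 males lay above all 6 F2/metestrus samples, as in 79 of 24862 genes (0.318%), while the ranges of males and F1/proestrus overlapped. Against F2/metestrus alone the log2 fold change was 0.53 (adjusted p of 0.0877 with edgeR), and against F1/proestrus alone it was 0.22 (adjusted p of 0.775). Without F1/proestrus replicate 5 the log2 fold change of males against all females was 0.43, with an adjusted p of 0.0312 (edgeR). Within the library series it was 0.26 and 0.44.

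For the other ligands the sexes overlapped. The log2 fold change of *Sst* in males against females was 0.26 (standard error 0.116), with an adjusted p of 0.480 in edgeR, and it was 0.18 without male replicate 5. That of *Npy* was 0.10 (95% interval -0.17 to 0.37, adjusted p of 0.814 in edgeR), and it was -0.010 without male replicate 5. Against F1/proestrus alone the log2 fold change of *Npy* in males was -0.07, and against F2/metestrus alone it was 0.29, and neither passed the test.

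The other receptors differed little. *Sstr2*, the receptor best known for hyperpolarizing dorsal horn neurons, ranged from 21.0 to 25.3 CPM in F1/proestrus, from 20.1 to 24.0 CPM in F2/metestrus and from 19.3 to 27.2 CPM in males. Its 95% intervals were -0.17 to 0.10 for F2/metestrus against F1/proestrus and -0.10 to 0.17 for males against females on the log2 scale. *Npy1r* ranged from 14.2 to 17.9, from 13.97 to 17.4 and from 12.6 to 17.8 CPM in the same order, with intervals of -0.22 to 0.11 and -0.15 to 0.14.

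*Sstr1* ranged from 5.81 to 8.24 CPM in F1/proestrus, from 6.53 to 9.18 CPM in F2/metestrus and from 7.12 to 8.66 CPM in males, and its log2 fold change of males against females was 0.13 (95% interval -0.03 to 0.29). *Sstr3*, a receptor of neuronal primary cilia, ranged from 5.08 to 7.36, from 6.29 to 7.43 and from 6.46 to 7.26 CPM, with log2 fold changes of 0.10 between the female groups and 0.01 between the sexes. The groups of both receptors overlapped. *Galr1* ranged from 3.70 to 4.45, from 2.75 to 5.37 and from 3.16 to 4.70 CPM. Between the female groups its log2 fold change (F2/metestrus over F1/proestrus) was -0.06, with the library series on opposite sides of 0 (0.18 in the first and -0.37 in the second).

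The library series were also compared, a comparison chosen with earlier results known and fitted with the group as a covariate. *Sst*, *Npy* and *Gal* were higher in the second series, by 0.31, 0.26 and 0.22 on the log2 scale (edgeR, adjusted p of 0.00807, 0.0410 and 0.0349). For *Npy* the groups were unlike in this. Its means in the first and second series were 26.3 and 27.5 CPM in F2/metestrus, 30.4 and 38.9 CPM in F1/proestrus, and 28.4 and 37.6 CPM in males. In this comparison 6637 of 24038 genes (27.6%) were called. The 3 ligands called, of 9 genes, are near this share, so the difference is not particular to them. No receptor passed the test, the nearest being *Galr1* at -0.26 (adjusted p of 0.0631). What the series are, beyond runs of library numbers, is not stated in the labels.

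Markers of other cells moved with some of these values. F1/proestrus replicate 6, male replicate 5 and male replicate 6 had the most *Sst*, at 143, 144 and 141 CPM, while the other 15 samples had 75.6 to 115 CPM. They also had the most *Npy*, at 52.0, 44.3 and 38.9 CPM against 24.7 to 33.2 CPM. All 3 belong to the second library series, so the higher *Sst* and *Npy* of that series include them. Without them *Npy* ranged from 26.6 to 33.2 CPM in the second series, against 24.7 to 31.2 CPM in the first. The summed level of 5 motor neuron genes in these 3 samples was 38.1, 17.7 and 43.2 CPM, against 25.4 to 135 CPM in the other 15. By group this sum was 25.4 to 135 CPM in F1/proestrus, 92.9 to 127 CPM in F2/metestrus and 17.7 to 115 CPM in males. F1/proestrus replicate 2, the sample at 25.4 CPM, had *Sst* at 94.4 and *Npy* at 29.5 CPM. None of the 5 motor neuron genes was at 0 in any sample, and the lowest count was 8, of *Mnx1*. The summed level of 5 inhibitory neuron genes in the same 3 samples was 672, 610 and 599 CPM. For the males these were the lowest of all 18 samples, and for F1/proestrus replicate 6 the lowest of its group. In the same order, the 5 excitatory dorsal horn neuron genes summed to 348, 309 and 315 CPM. Of the 5 inhibitory neuron genes *Slc6a5* had the widest range, 205 to 407 CPM over the 18 samples, whereas *Pax2* was at most 3.17 CPM. The inhibitory sum thus does not show the list as a whole. For males against females, 3 of the 5 genes had a log2 fold change below 0 and 2 above 0. The part of motor neuron or inhibitory neuron content in the differences of *Sst* and *Npy* was not tested. In bulk tissue, fewer cells of a type and less RNA per cell cannot be told apart.

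The summed level of the 8 sensory ganglion genes was 78.8 to 715 CPM in F1/proestrus, 110 to 135 CPM in F2/metestrus and 65.2 to 119 CPM in males. Outside F1/proestrus replicate 5 the defining genes *Scn10a* and *Scn11a* were at most 0.153 and 0.223 CPM. There the sum was mostly *Ret*, at 56.9 to 104 CPM, and *Calca*, at 6.34 to 33.5 CPM, and *Avil* was at most 0.903 CPM. Its ranges there thus show mainly *Ret* and *Calca*, and no ganglion content can be read from them. For inhibitory neurons, the 5 genes summed to 672 to 846 CPM in F1/proestrus, 692 to 833 CPM in F2/metestrus and 599 to 803 CPM in males, and for excitatory dorsal horn neurons to 288 to 348, 293 to 317 and 303 to 324 CPM. Of both lists 0 of 5 genes were called in either comparison. The 4 Schwann cell genes summed to 1225 to 2567 CPM in F1/proestrus, 1259 to 1857 CPM in F2/metestrus and 1821 to 4478 CPM in males. The 2567 CPM was F1/proestrus replicate 5, and the next highest F1/proestrus sample had 1586 CPM. Of the 4 genes 1, *Ncmap*, was called between the sexes (adjusted p of 0.00654 with edgeR). The part of Schwann cell content in the sex difference of *Npy2r* was not tested.

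Over the remaining lists, 0 genes of oligodendrocytes, astrocytes, microglia, endothelial cells, red blood cells and meningeal fibroblasts were called by edgeR in either comparison. The nearest was the microglial receptor gene *Csf1r* between the sexes, at an adjusted p of 0.0548, and DESeq2 called it (adjusted p of 0.00577).

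**Figure D4:**
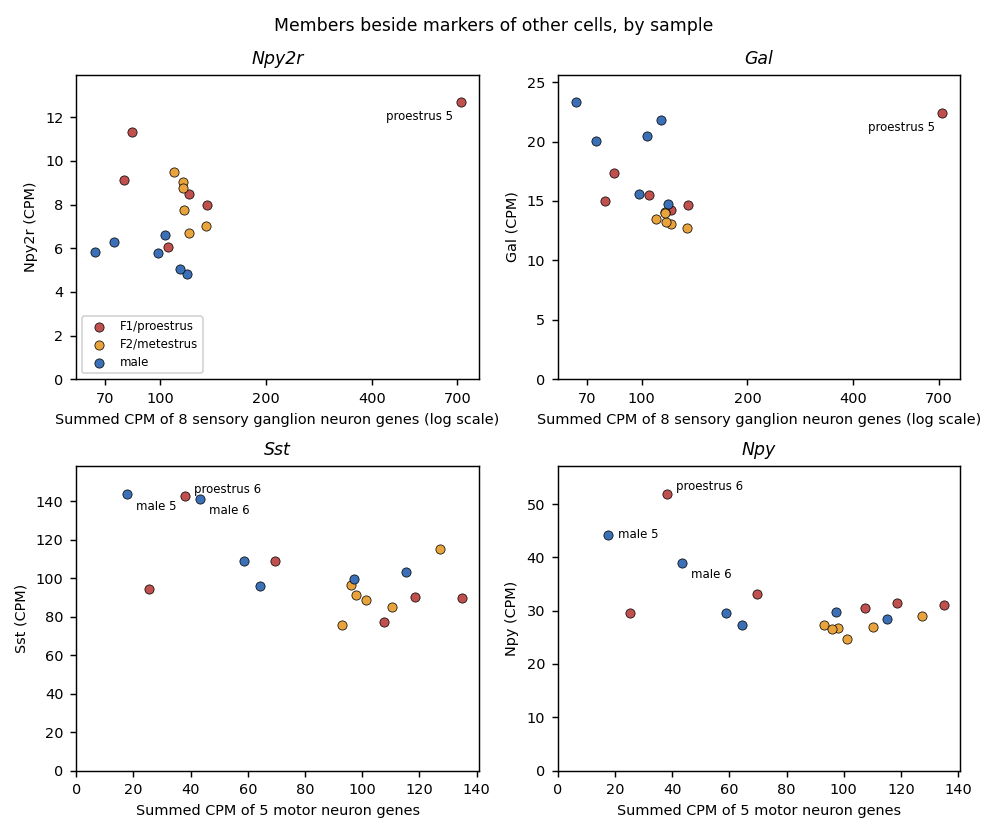
*Npy2r* and *Gal* (CPM) against the summed CPM of 8 sensory ganglion neuron genes (log scale), and *Sst* and *Npy* (CPM) against the summed CPM of 5 motor neuron genes, with 1 point per sample. F1/proestrus replicate 5 lies alone at 715 CPM of ganglion genes, and the 3 samples with the most *Sst* and *Npy* have 17.7 to 43.2 CPM of motor neuron genes. In the 17 samples other than F1/proestrus replicate 5 the ganglion sum is mostly *Ret* and *Calca*.

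Across samples, some of the 9 genes varied together once the mean of each group and series had been removed. Pearson's r over 18 samples on the log2 CPM scale was 0.815 for *Sst* and *Npy* (Spearman's rho 0.695), 0.714 for *Sst* and *Sstr2* (rho 0.668) and 0.688 for *Gal* and *Npy2r* (rho 0.579). Without the 2 samples farthest from the median of the first gene named, the 3 values were 0.691, 0.610 and 0.600. For both *Sst* pairs the samples left out were male replicate 4 and F1/proestrus replicate 5. F1/proestrus replicate 6, which stood apart in *Npy* and *Sstr2*, thus stayed in. For *Sst* and *Gal* r was -0.224. Without removing the means, r over the 18 samples was 0.795, 0.676 and -0.126 for the first 3 pairs and 0.535 for *Sst* and *Gal*, so the last 2 pairs changed sign with this step. These values are descriptions: 36 pairs were computed, and the samples share dissection and library effects. The genes most like each of the 9 over the same 18 samples, again with the means removed, among 17763 genes, were *Hpca* for *Sst* (r of 0.968), followed by *Cnih2* and *Itm2c* (0.965 and 0.963), *Gng4* for *Npy* (0.916), followed by *Nat8f4* and *Abhd14a* (0.895 and 0.887), and *Chrnb4* for *Gal* (0.879), followed by *Kcnn4* and *Tmem131l* (0.832 and 0.822). For the receptors they were *Gm53*, *C130021I20Rik* and *Ppp1r16b* for *Sstr1* (0.894, 0.852 and 0.850), *Ccnd2*, *Pomgnt1* and *Gm10179* for *Sstr2* (0.893, 0.875 and 0.863), *Htr1b*, *Zfp59* and *Kbtbd11* for *Sstr3* (0.876, 0.838 and 0.838), and *Ska2*, *Kansl1l* and *Cdk17* for *Npy1r* (0.960, 0.939 and 0.934). *Npy2r* was most like *Pyroxd2*, *Gm14232* and *Gm30003* (0.817, 0.816 and 0.812), and *Galr1* most like ENSMUSG00000118220, *Tbc1d20* and *Ncoa2* (0.862, 0.820 and 0.816). All 27 values were lower without removing the means, and for *Sstr3* and *Kbtbd11* r was then -0.0602.

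Of 12 other ligands and receptors, 7 were tested and 0 were called in either comparison. *Npy5r*, a further neuropeptide Y receptor, was at 7.01 ± 0.648 CPM (SD, n = 18), which per length is 2.74 RPKM and lies between *Sstr1* and *Npy2r*, and *Sstr4* was at 1.80 ± 0.330 CPM. *Spx*, which encodes the galanin receptor ligand spexin, was at 0.740 ± 0.184 CPM. *Galr2*, *Galr3*, *Sstr5* and *Npy4r* were at 0.223, 0.213, 0.177 and 0.146 CPM on average, so that *Galr1* was the galanin receptor with the highest level per length as well. *Galr2* had the lowest unadjusted p of these between the sexes, at a log2 fold change of -0.55 (p of 0.0373 before and 0.488 after adjustment with edgeR). *Cort*, *Npy6r*, *Pyy*, *Ppy* and *Galp* had too few counts to be tested.

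Genes that process these peptides, and genes through which their receptors act, did not pass the test. Of 12 genes of peptide processing and degradation 0 were called in either comparison, with median log2 fold changes of -0.02 between the female groups and 0.04 between the sexes. The smallest adjusted p in this list was 0.171, of *Scg2*, a granin of dense core vesicles, at a log2 fold change of 0.16 in males. Of 9 genes of inhibitory G proteins and GIRK channels 0 were called, with medians of 0.02 and 0.02. *Kcnj6*, a GIRK subunit, was at -0.16 in F2/metestrus relative to F1/proestrus on the log2 scale (edgeR p of 0.0449 before and 1.0 after adjustment), and it was the single gene of this list with an unadjusted p under 0.05 in either comparison.

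By GENCODE vM21 on GRCm38, *Sst* lies on chromosome 16 from 23889573 to 23890958, *Npy* on chromosome 6 from 49822710 to 49829507, *Gal* on chromosome 19 from 3409915 to 3414544, *Sstr1* on chromosome 12 from 58211772 to 58214444, *Sstr2* on chromosome 11 from 113619342 to 113626028, *Sstr3* on chromosome 15 from 78537008 to 78544685, *Npy1r* on chromosome 8 from 66697192 to 66706792, *Npy2r* on chromosome 3 from 82538383 to 82548084 and *Galr1* on chromosome 18. All 9 are protein coding, and none shares exonic bases with another gene. *Sstr2* overlaps *Slc39a11* on the opposite strand, with 0 exonic bases shared, so reads counted on exons of the 9 genes are not split with a neighbour.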

How the data were processed

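The authors deposited raw counts of reads per gene for 55573 Ensembl genes in 18 DHSC samples, not normalized. In the methods, Subread placed unique reads on mm10 and featureCounts assigned them to exons. The submitters' processing notes name Subread 2.0.3. The methods name a TruSeq kit and the labels SMART-Seq v4 with Nextera XT, and the strand setting is not given in the sources used here. A second table that the authors deposited holds DESeq2 values of their own comparison (mean, log2 fold change, standard error, statistic, p-value and adjusted p), of which only the gene symbols were used.

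The low-count filter was filterByExpr (at least 10 counts, 15 in total). Libraries were TMM-scaled, and edgeR 4.0.16 (R 4.3.3) supplied the quasi-likelihood test. P-values were adjusted by Benjamini-Hochberg, with calls at an FDR of 5%. F2/metestrus was compared with F1/proestrus over 12 females, and males with females over 18 samples. Standard errors were obtained from the F statistic and the log2 fold change. RPKM used union exons of GENCODE vM21, which held 55480 of the 55573 gene IDs. Alternatives were DESeq2 1.42.0, limma voom 3.58.1 with quality weights, size factors, other filters, 3 groups in 1 fit, a replicate block, the library series as a covariate or each alone, males against each female group alone, and leaving out each sample. Males against each female group alone was a contrast within the fit of 3 groups over all 18 samples. The test was checked on simulated data with planted 2-fold changes, larger than any group difference of the 9 genes, and no library-series effect. That check does not show how the test performs on smaller differences. Genes named are the 9 genes, listed genes past the threshold or at 0.1 CPM or more among the other genes of the 3 systems, and the 3 genes most like each (log2 CPM with a prior count of 2, mean of at least 1 CPM). *Galr2*, *Kcnj6* and *Scg2* were singled out after their values were seen. The genes and lists were chosen with earlier results of these data known. Total counts of 73590509 to 125724156 per sample limit precision by counting error only.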

Additional observations from a re-analysis of the deposited data

Results flagged for a closer look

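For each of the 9 genes and each group of 6 samples, 27 in all, the highest and the lowest sample were compared with the rest of their group, and 2 stood apart by the size of their gap relative to the range of the group, where chance flags about 1 in 20 groups. Both were F1/proestrus replicate 6. Its *Npy* was at 52.0 CPM, against 29.5 to 33.2 CPM in the other 5 F1/proestrus samples, and its *Sstr2* was at 25.3 CPM, against 21.0 to 22.3 CPM.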

How the results depend on the processing

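Between the female groups, 0 genes were called under every alternative except DESeq2, which called 2, and 0 with any sample left out. Between the sexes, against 49 calls, DESeq2 called 159 genes, the replicate block 148, the library series as a covariate 134, at least 10 counts in every sample 31, the first and second series alone 16 and 13, and males against F1/proestrus or F2/metestrus alone 23 and 32. With 1 sample left out the count ranged from 25 (without male replicate 5) to 77 (without F1/proestrus replicate 5), and it was 30 without male replicate 4. The cause of these shifts was not tested. The fits within a series use fewer samples, whereas males against 1 female group was a contrast in a fit of all 18 samples.

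*Npy2r* (males against females, adjusted p of 0.0548) was called by DESeq2 (log2 fold change -0.61, adjusted p of 0.00117), with the replicate block (-0.59, 0.00529) and with the series as a covariate (-0.60, 0.0317), and on leaving out F1/proestrus replicate 4 or 5 or F2/metestrus replicate 1 or 4 (0.0233 to 0.0493). Over all 18 samples left out in turn its log2 fold change was -0.66 to -0.54 and its adjusted p 0.0233 to 0.169. It was not called with voom (0.108), within either series (0.332 and 0.312) or against F1/proestrus or F2/metestrus alone (0.0795 and 0.298). The log2 fold changes of *Npy* and *Gal* between the female groups stayed below 0 under the alternatives listed and with each sample left out.

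Signs changed mostly for values near 0. In *Galr1* between the female groups and *Npy1r* between the sexes, both series instead lay away from 0, on opposite sides. *Galr1* was at 0.18 in the first series and -0.37 in the second, and *Npy1r* at -0.13 and 0.11. Between the female groups the signs changed for *Sstr1* in the second series (-0.034), *Npy1r* in the first series (0.013) and *Galr1* with voom (0.0099) and in the first series (0.18). With 1 sample left out *Sstr1* ranged from -0.017 to 0.088, *Sstr2* from -0.061 to 0.0056 and *Galr1* from -0.18 to 0.020. Between the sexes the signs changed for *Npy* in the first series (-0.013) and against F1/proestrus alone (-0.068), and for *Sstr3* in the second series (-0.026) and against F2/metestrus alone (-0.035). They also changed for *Npy1r* in the second series (0.11) and against F2/metestrus alone (0.026), and for *Galr1* in the second series (0.023). With 1 sample left out *Npy* ranged from -0.010 to 0.19, *Sstr2* from -0.037 to 0.069, *Sstr3* from -0.024 to 0.029 and *Npy1r* from -0.049 to 0.049.

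The replicate numbers did not pair the samples: of 18 same-numbered pairs 9 had a correlation of deviations over 0.1, with a range of -0.105 to 0.228, and 1 of 18 samples correlated best with its own number in both other groups. The replicate block moved the count between the sexes from 49 to 148 and left it at 0 between the female groups. The depth, at least 217 reads per gene and sample, does not limit the levels of the 9 genes, whereas *Cort*, *Npy6r*, *Pyy*, *Ppy* and *Galp* are at or near the floor.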
